A study of Zea mays with 4 samples.

Results

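NKD2 site pairs at 4 recurrent exact spacings are described here. They were found in the list of NKD2 peaks from DNA affinity purification sequencing (DAP-seq), in which a tagged transcription factor made in vitro is mixed with sheared naked genomic DNA and the DNA it retains is sequenced. The list was sorted by chromosome and summit, the base at which the peak caller placed the binding event, and every pair of successive summits exactly 0.078, 0.122, 0.152 or 0.156 kb apart was kept (0.001 kb is 1 bp). This gave 182 pairs made of 358 distinct peaks, out of 56855 NKD2 peaks and of 67130 peaks in all 4 lists of the series. There were 33 pairs at 0.078 kb, 37 at 0.122 kb, 80 at 0.152 kb and 32 at 0.156 kb. The members were chosen by the measured distances between NKD2 summits, at spacings that recurred, so the number of pairs at each is a description and carries no test.

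The genomic DNA was that of maize inbred B73, taken from seedlings aged 14 days and sheared to fragments near 200 bp. The protein was NKD2 or NKD1, each made in a wheat germ extract with a HALO tag, and the further lists of the series were for HB115 and NACTF49, used here only for the spacing of their own peaks. Each factor had 1 library, so no replicate error exists, no comparison could be tested across samples, and the 95% Wilson intervals given for shares cover counting error only. The read depth behind the peaks is unknown. Binding was to naked DNA, so the chromatin, tissue and time of action in the plant are not represented.

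NKD1 and NKD2 (NAKED ENDOSPERM1 and 2) are zinc finger proteins of the INDETERMINATE DOMAIN family, encoded by duplicate genes and known for their role in the aleurone, the outer layer of the cereal endosperm. Transcription factors of this kind recognise short DNA words, and several words close together can hold several protein molecules. Much of the maize genome consists of transposable elements and tandem repeats, families of sequence copies in which a short word recurs at fixed distances. The sequence of the genome build of these lists was not used here, so no motif, repeat family or gene is assigned to any pair.

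The 4 spacings stood out by single base pairs. Among the 3650 pairs of successive NKD2 summits up to 1000 bp apart, 0.152 kb was the most frequent distance, 0.122 kb ranked 2, 0.078 kb ranked 3 and 0.156 kb ranked 4. At 0.152 kb there were 80 pairs, with 7 and 8 pairs at 1 bp less and 1 bp more. At 0.122 kb there were 37 pairs, with 6 and 7 pairs at 1 bp less and 1 bp more. At 0.078 kb there were 33 pairs, again with 6 and 7 pairs on either side. At 0.156 kb there were 32 pairs, with 17 pairs at 1 bp less and 3 at 1 bp more. Over the spacings within 10 bp of each class, the median was 7 pairs around 0.078, 0.122 and 0.156 kb and 9 around 0.152 kb. Just outside the rule were 0.203 kb with 31 pairs and 0.075 kb with 23 pairs. Thus 0.156 kb and 0.203 kb were separated by 1 pair. With any 2 summits counted, not only successive ones, 0.203 kb had 35 pairs, 0.156 kb had 34 and 0.078 kb had 33.

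**Figure D1:**
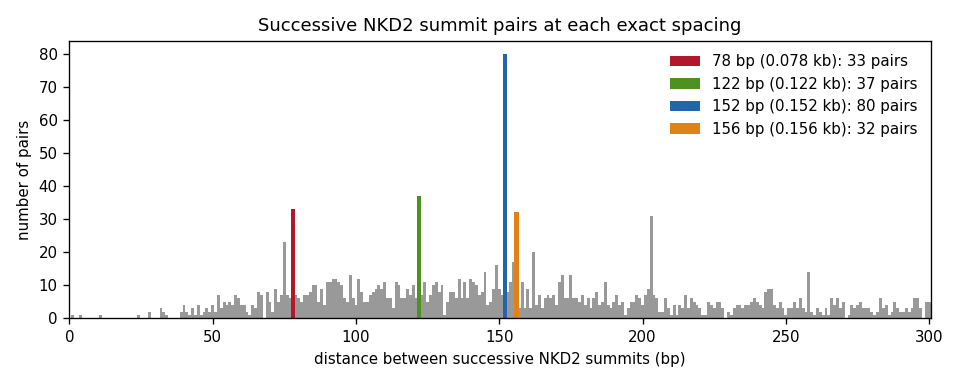
Bars give the number of successive NKD2 summit pairs (y axis) at each exact distance from 1 to 300 bp (x axis), with the 4 spacing classes in colour and all other distances in grey. The bars at 0.152, 0.122, 0.078 and 0.156 kb reach 80, 37, 33 and 32 pairs, whereas the median near each class is 7 to 9, and the grey bar at 0.203 kb reaches 31.

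The same distances were looked for in the other lists, each by itself. NKD1, with 1951 peaks, had 20 successive pairs up to 1000 bp apart, of which 3 were at exactly 0.078 kb and 3 at exactly 0.156 kb, and 0 were at 0.122 or 0.152 kb. NACTF49 had 114 such pairs and HB115 had 6, with 0 at any of the 4 distances. The 6 pairs of HB115 are too few to show a recurrent spacing. Reads were 75 bp long for NACTF49 and HB115 and 150 bp for NKD1 and NKD2. The methods give paired-end reads for NKD1 and NKD2, and do not name NACTF49 or HB115. Effects of read length, layout or instrument were not tested. The NKD2 list had 65 of 3650 pairs at 0.078 or 0.156 kb (1.78%), against 6 of 20 in NKD1 (30.0%). The NKD1 number is small. Of these 6 NKD1 pairs, 4 were at sites of the NKD2 pairs at 0.078 or 0.156 kb described below. There both NKD1 summits lay within 1 bp of both NKD2 summits. The lists also differ in strength. Of the 1655 NKD2 peaks with an NKD1 summit within 10 bp, 1299 were in the strongest 10% of the NKD2 list. The NKD1 share was not set against strong NKD2 pairs alone.

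Pairs at 0.078 kb joined strong NKD2 peaks. The signal, which is the strength that the peak caller gave to the event, ranged from 13.3 to 213.1 over the members with a median of 62.5. Ranked by signal within the NKD2 list, their median percentile was 95.8 (95% interval from order statistics 84.3 to 97.5). Such intervals count the 2 members of a pair as independent, which they are not, and can be too narrow. Both members were in the strongest 10% of the list in 17 of 33 pairs (51.5%, 35.2 to 67.5%). Of the 1278 successive pairs 50 to 250 bp apart at other spacings, used for comparison throughout, this held for 36 (2.82%, 2.04 to 3.88%), and the median percentile of their members was 48.0 (47.3 to 51.9). Strong peaks that belong to 2 pairs are counted in both. Without the 8 pairs at 0.078 kb that share a peak with another pair, the median percentile was 85.2. Both members were then in the strongest 10% in 9 of 25 pairs (36%, 20.2 to 55.5%).

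Positions are summits in B73 build v4 as the lists give them, counted from 1. The strongest pair at 0.078 kb lay on chromosome 5, with summits at 83839396 and 83839474 and signals of 213.1 and 118.9. The next lay on chromosome 6 at 143645941 and 143646019 with signals of 125.7 and 156.4. The third lay on chromosome 2 at 193567911 and 193567989 with signals of 102.7 and 150.3. In these examples the stronger member was at the lower coordinate on chromosome 5 and at the higher coordinate on chromosomes 6 and 2.

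The members of a pair at 0.078 kb were often unequal. Balance was measured as the weaker signal divided by the stronger, so that 1 means equal peaks. Its median was 0.602 (0.459 to 0.751), near the 0.646 (0.625 to 0.661) of the pairs at other spacings. The most unequal pair, on chromosome 3 at 74831672 and 74831750, had signals of 76.9 and 16.1, a balance of 0.209. The most equal, on chromosome 4 at 5685917 and 5685995, had 19.3 at both members. The stronger peak was at the higher coordinate in 15 pairs, at the lower in 17, and 1 pair was equal. Across the 33 pairs Spearman's rho between the signals of the lower and the higher member was 0.494, given as a description, since the members of a pair share reads and some pairs share a peak.

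NKD1 peaks lay at most of the strong 0.078 kb pairs. An NKD1 summit was within 100 bp of a member in 21 of 33 pairs (63.6%, 46.6 to 77.8%). Over all NKD2 peaks the share with an NKD1 summit within 100 bp was 3.48%, and over the pairs at other spacings the share with one near either member was 11.5%. Since 100 bp is longer than the spacing, the member was assigned within 10 bp, a limit met by 2.91% of all NKD2 peaks and, at either member, by 9.47% of the pairs at other spacings. All 21 pairs also met this limit. The NKD1 summit was at the lower member in 11 pairs and at the higher member in 13, which includes 3 pairs with NKD1 at both. It was at the stronger member in 15 pairs and at the weaker in 9, with a peak shared by 2 pairs counted in both. The pairs at other spacings leaned the same way, with NKD1 at the stronger member in 87 and at the weaker in 39.

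The pairs with and without NKD1 overlapped little in the summed NKD2 signal. The 21 pairs with NKD1 had summed signals from 98 to 332 with a median of 173.2. The 12 pairs without NKD1 had summed signals from 30.0 to 100.5 with a median of 45.5. Only 1 of the 12 pairs, on chromosome 2 at 231902813 and 231902891, was above the weakest pair with NKD1, with signals of 76.0 and 24.5. In the strongest 10% of all NKD2 peaks, 22.8% had an NKD1 summit within 10 bp. By strength, with each peak counted once, NKD1 was at 13 of 17 members of 0.078 kb pairs in the strongest 2% of the list (76.5%, 52.7 to 90.4%), where the share over all peaks was 54.7%. Between the percentiles 95 and 98 it was at 7 of 16 members (43.8%, 23.1 to 66.8%), against 23.8% of all peaks, and between 90 and 95 at 0 of 5 (up to 43.4%), against 9.58%. Each of these intervals included the share over all peaks of the same strength. Lower in the list, between the percentiles 80 and 90, it was at 1 of 3 members (33.3%, 6.15 to 79.2%), against 3.03% of all peaks. Between 50 and 80 it was at 1 of 12 (8.33%, 1.49 to 35.4%), against 0.799%. Both of those intervals lay above the share over all peaks, each resting on 1 member with NKD1. In the weaker 50% of the list it was at 0 of 11 (up to 25.9%), against 0.187%. Without the 8 pairs that share a peak with another pair, an NKD1 summit was within 100 bp of 13 of 25 pairs (52%, 33.5 to 70.0%).

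Every NKD1 summit assigned to a member lay exactly 1 bp from the NKD2 summit. This held for 32 of 32 distinct NKD1 summits over the 4 classes, of which 17 were 1 bp above and 15 were 1 bp below. Among all NKD1 peaks with an NKD2 summit within 10 bp, the share at exactly 1 bp was 91.4%. In the 4 pairs with NKD1 at both members, 3 at 0.078 kb and 1 at 0.156 kb, the NKD1 summits were displaced to the same side in each pair. On chromosomes 5 and 1 they lay 1 bp below, as in the pair at 290146992 and 290147070 on chromosome 1, with NKD2 signals of 137.1 and 75.9. In the chromosome 2 pair at 193567911 they lay 1 bp above.

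**Figure D2:**
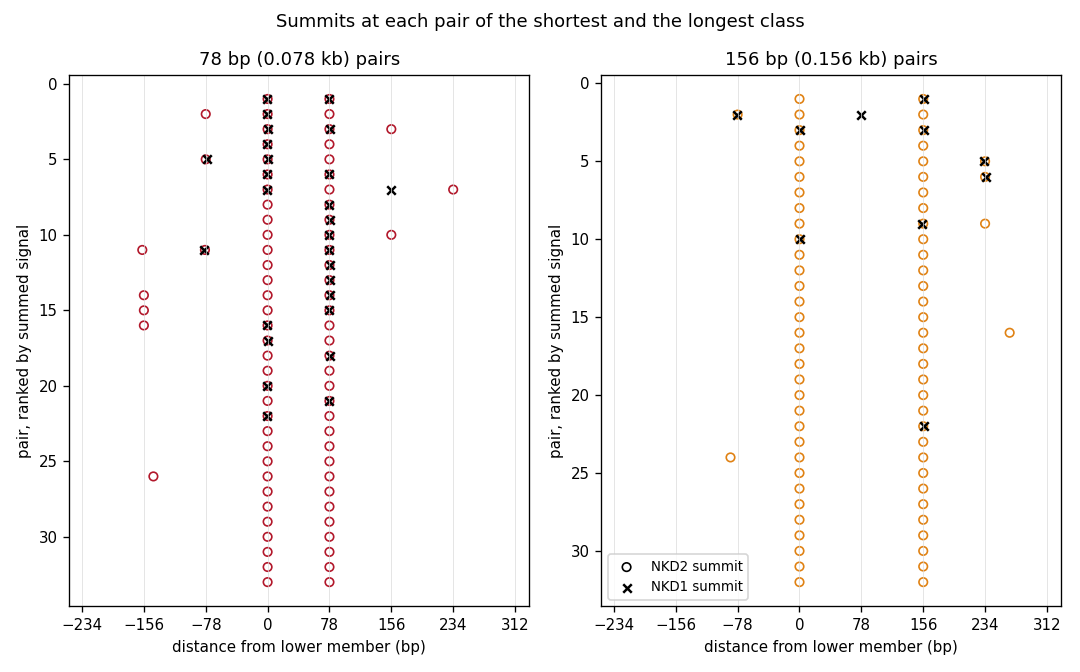
Each row is a pair at 0.078 kb (left) or 0.156 kb (right), ranked by summed NKD2 signal with the strongest on top, and the x axis gives the distance in bp from the lower member. Circles are NKD2 summits, further ones within 1 kb included, and crosses are NKD1 summits within 100 bp of the pair. The crosses stop after rank 22 of 33 at 0.078 kb. Most further circles sit on the grid of 78 bp steps, where 8 of 10 at 0.078 kb and 4 of 4 at 0.156 kb are members of a pair that shares a peak.

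Pairs at 0.156 kb, a distance of 2 steps of 78 bp, were strong as well. The member signals ranged from 11 to 172.4 with a median of 39.7, and the median percentile was 87.4 (81.4 to 93.4). Both members were in the strongest 10% of the list in 10 of 32 pairs (31.3%, 18.0 to 48.6%). Without the 4 pairs that share a peak with another pair, both were there in 7 of 28 pairs (25%, 12.7 to 43.4%), and the median percentile was 84.6. The strongest pair lay on chromosome 3 at 66930237 and 66930393 with signals of 72.6 and 172.4. The next was on chromosome 4 at 121807798 and 121807954 with 129.2 and 90, and the third on chromosome 7 at 54773057 and 54773213 with 52.0 and 131.0. The higher coordinate held the stronger peak in 22 of 32 pairs (68.8%, 51.4 to 82.0%), against 47% of the pairs at other spacings. With the q-value in place of signal the share was 62.5%, and the pairs at other spacings were not compared in that way. The lists carry no strand, so these shares refer to the reference orientation only.

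Balance at 0.156 kb had a median of 0.598 (0.486 to 0.723). It ran from 0.309 on chromosome 1 at 251878982, with signals of 27.4 and 88.6, to 0.972 on chromosome 7 at 68504536, with 63.1 and 64.9. Spearman's rho between the signals of both members was 0.630 across the 32 pairs, again as a description.

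NKD1 peaks lay at a minority of these pairs. An NKD1 summit was within 100 bp of a member in 8 of 32 pairs (25%, 13.3 to 42.1%) against 11.5% of the pairs at other spacings, and within 10 bp in 5 (15.6%, 6.86 to 31.8%), whose interval included the 9.47% of those pairs. Without the 4 pairs that share a peak with another pair, both counts were 4 of 28 (14.3%, 5.70 to 31.5%), and that interval included 11.5% and 9.47%. In the strongest 2% of the list NKD1 was at 3 of 10 members (30.0%, 10.8 to 60.3%), and the whole-list share of 54.7% lay within that interval. The 8 pairs with NKD1 had summed signals from 64.0 to 245 and the 24 without it from 24.0 to 180, so that the groups overlapped widely. Both members had an NKD1 summit in 1 pair, on chromosome 7 at 54773057, with NKD1 1 bp above each.

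Some 0.078 and 0.156 kb pairs followed each other directly, so that 1 peak belonged to both. A further NKD2 summit within 1 kb was found at 10 of 33 pairs at 0.078 kb (30.3%, 17.4 to 47.3%) and at 6 of 32 pairs at 0.156 kb (18.8%, 8.89 to 35.3%), against 8.69% of the pairs at other spacings. Of the 11 further peaks beside 0.078 kb pairs, 10 lay within 2 bp of a multiple of 78 bp from the lower member. Of the 6 beside 0.156 kb pairs, 4 lay exactly at one. Pairs that share a peak enter both counts, 8 pairs at 0.078 kb and 4 at 0.156 kb. In those pairs the rule itself placed the further peak on the 78 bp grid, which held for 8 of the 10 and for 4 of the 4. Without them the shares with a further peak were 8% and 7.14%. Leaving them out takes away only pairs with a further peak, and the pairs at other spacings were not thinned in this way. The lower shares therefore cannot be set against the 8.69% of those pairs. Beside the pairs that share no peak, 2 of 3 further peaks at 0.078 kb lay on the grid, both at 1 locus, and 0 of 2 at 0.156 kb.

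The peaks on the grid formed 7 loci on 5 chromosomes, 6 with 3 NKD2 summits and 1 with 4. In 6 of the 7, the 3 summits were 2 pairs that share a peak, so their steps follow from the rule and are a description. On chromosome 2 the summits at 193567911, 193567989 and 193568067 were 78 bp apart each, with signals of 102.7, 150.3 and 69.0. On chromosome 6 those at 143645863, 143645941 and 143646019 had 49.9, 125.7 and 156.4. At both loci the steps were equal, and the weakest peak was at 1 end.

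In 4 further loci 1 position of the 78 bp grid had no NKD2 summit. On chromosome 3 the summits at 92595449, 92595605 and 92595683 had signals of 39.6, 98.3 and 46.9, and those at 130559532, 130559688 and 130559766 had 54.9, 89.7 and 67.4. On chromosome 8 the summits at 99752301, 99752457 and 99752535 had 71.1, 75.6 and 76.4. In these loci the empty position was the second of 4. On chromosome 4 the summits at 121807720, 121807798 and 121807954 had 60.8, 129.2 and 90, so that the empty position was the third. There the NKD1 list had a summit, at 121807875, 77 bp from the nearest NKD2 summit and with an NKD1 signal of 30.5.

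The locus with 4 NKD2 summits was also on chromosome 4, at 140237782, 140237861, 140237940 and 140238018. Its steps were 79, 79 and 78 bp and its NKD2 signals 48.1, 82.7, 99.9 and 73.3. NKD1 had summits 1 bp below the second and the fourth, with NKD1 signals of 54.7 and 40.3. All 7 loci held at least 1 NKD1 summit, 10 in all, and 9 of the 10 were 1 bp from an NKD2 summit. Strong NKD2 peaks often had NKD1 anywhere in the list. An NKD1 summit was within 10 bp of 54.7% of all peaks in the strongest 2%. Between the percentiles 95 and 98 it was 23.8%, and between 90 and 95 it was 9.58%. Whether the loci exceeded peaks of equal strength was not tested. The 22 NKD2 peaks of the loci ranged in signal from 39.6 to 156.4 and in percentile from 87.4 to 99.8. The loci were drawn from the pair classes, so their number is a description.

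**Figure D3:**
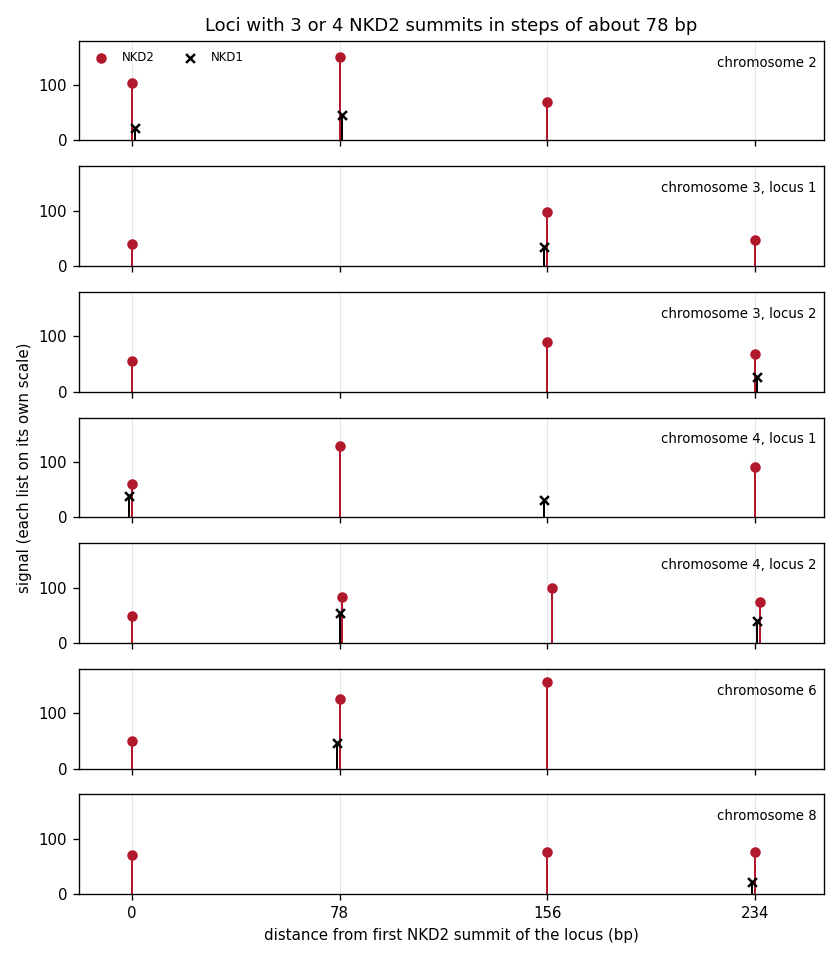
Each panel is 1 of the 7 loci, with the distance from its first NKD2 summit in bp on the x axis and the deposited signal on the y axis. Red circles are NKD2 peaks and black crosses are NKD1 peaks, whose signals are on a scale of their own. The peaks sit at or within 2 bp of 0, 1, 2 and 3 steps of 78 bp, and the first chromosome 4 locus has an NKD1 cross near 2 steps with no NKD2 circle.

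Pairs at 0.122 kb joined peaks of ordinary strength. The member signals ranged from 11.1 to 103.0 with a median of 21.4, and the median percentile of 50.3 (40.2 to 61.6) was close to that of the pairs at other spacings. Both members were in the strongest 10% of the list in 0 of 37 pairs, which allows a share of up to 9.41%. The strongest pair lay on chromosome 7 at 87095509 and 87095631 with signals of 28.6 and 99.4. The next was on chromosome 9 at 105955729 and 105955851 with 24.8 and 103.0, and the third on chromosome 1 at 156890538 and 156890660 with 39.6 and 60.4. In all 3 the stronger peak was at the higher coordinate, as in 24 of the 37 pairs (64.9%, 48.8 to 78.2%). The median balance was 0.656 (0.581 to 0.818), from 0.219 on chromosome 4 at 241887859, with 13.3 and 60.7, to 0.991 on chromosome 2 at 67852638, with 22.4 and 22.6. Spearman's rho between the signals of both members was 0.05.

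NKD1 was present at 4 of 37 pairs at 0.122 kb (10.8%, 4.29 to 24.7%), close to the 11.5% of pairs at other spacings. In 4 of 4 it was at the higher member and 1 bp above it. These pairs were on chromosome 7 at 87095509 and 96612798, chromosome 6 at 21396798 and chromosome 10 at 104503613. The higher members had NKD2 signals of 99.4, 56.7, 53.2 and 35.2, and in the last the lower member was stronger at 40.8. Only 2 pairs had a further NKD2 peak within 1 kb (5.41%, 1.5 to 17.7%), at 213 and 961 bp. On chromosome 1, which held 9 of the pairs, 3 followed each other at nearly even steps, with lower summits at 174218238, 174437952 and 174657324, or 219714 and 219372 bp apart.

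Pairs at 0.152 kb were the most numerous and the weakest class. The member signals ranged from 9.70 to 72.0 with a median of 16.8, and the median percentile was 26.5 (25.4 to 37.6). Both members were under the median of the NKD2 list in 38 of 80 pairs (47.5%, 36.9 to 58.3%), against 365 of the 1278 pairs at other spacings (28.6%, 26.2 to 31.1%). Both were in the strongest 10% in 0 of 80 pairs, which allows up to 4.58%. The strongest pair lay on chromosome 1 at 227714137 and 227714289 with signals of 12 and 72.0. It was also the most unequal, with a balance of 0.167, and the only pair of the class with an NKD1 peak. The next were on chromosome 6 at 100688519, with 17.7 and 45.3, and on chromosome 9 at 45972873, with 41.8 and 19.2.

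The balance of the 0.152 kb pairs had a median of 0.736 (0.634 to 0.790), and its highest value was 0.988. The stronger peak was at the higher coordinate in 41 pairs and at the lower in 39. NKD1 was found at 1 of 80 pairs (1.25%, 0.221 to 6.75%), below the interval of 9.87 to 13.4% for the pairs at other spacings. The members were mostly in the part of the NKD2 list where NKD1 is rare. In the weaker 50% of the list NKD1 was within 10 bp of 0.187% of all peaks and of 0 of 114 members, which allows up to 3.26%. Further NKD2 peaks within 1 kb were seen at 4 of 80 pairs (5%, 1.96 to 12.2%), 392 to 929 bp from the nearer member. No pair at 0.122 or 0.152 kb shared a peak with another pair.

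**Figure D4:**
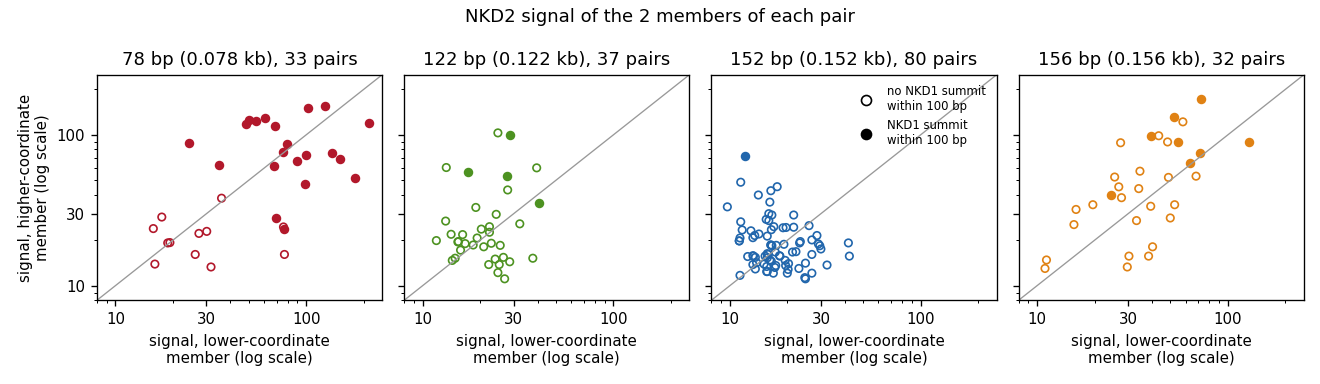
Each point is a pair, with the NKD2 signal of the lower-coordinate member on the x axis and of the higher-coordinate member on the y axis, both log scales, and the line marks equal signals. Filled points have an NKD1 summit within 100 bp of a member and open points do not. Pairs at 0.078 and 0.156 kb reach 213.1 and 172.4, whereas the 0.152 kb pairs do not pass 72.0 and hold 1 filled point.

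The deposited signals of the members of a pair were not independent of each other. Signals are given to 1 decimal, and of the NKD2 peaks with no other summit within 1000 bp, 78.2% had a whole number (within 0.05). Of the members of the 182 pairs, only 37 of 364 signals were whole (10.2%, a peak shared by 2 pairs counted in both), but the sum over the pair was whole in 141 of 182 (77.5%). The whole sums numbered 21 of 33 at 0.078 kb, 32 of 37 at 0.122 kb, 65 of 80 at 0.152 kb and 23 of 32 at 0.156 kb. Among pairs of the 4 classes with no further summit within 1000 bp, 135 of 160 sums were whole (84.4%). Other pairs without a further summit, at none of the 4 spacings and more than 100 and up to 200 bp apart, had 578 of 651 whole sums (88.8%). Of their single members 10.3% were whole. That range leaves out 0.078 kb, where 18 of 23 sums of pairs without a further summit were whole (78.3%).

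Chromosomes held unequal numbers of pairs. For each class the chromosome with the most pairs is named. No interval was computed for these shares, and an excess over the share of peaks was not tested. Chromosome 4 held 10 of the 33 pairs at 0.078 kb (30.3%) and 12.8% of all NKD2 peaks, and chromosome 2 held 7. Of the 80 pairs at 0.152 kb, 20 were on chromosome 2 (25%), which held 12.4% of the peaks. The 0.122 kb class had 9 of 37 pairs on chromosome 1 (24.3%, against 15.2% of the peaks), and the 0.156 kb class had 7 of 32 on chromosome 3 (21.9%, against 12%) and 6 on chromosome 4. Without the pairs that share a peak, chromosomes 1, 3 and 4 each held 5 of the 28 at 0.156 kb. On chromosome 5, which held 5.01% of the peaks, there were 1, 0, 3 and 0 pairs at 0.078, 0.122, 0.152 and 0.156 kb. The pairs were spread over 9 or 10 of the 10 chromosomes in each class.

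Along the chromosomes, pairs at 0.152 and 0.156 kb were scarce toward the ends. The outer 20% at each end held 13 of 80 pairs at 0.152 kb (16.3%, 9.75 to 25.8%) and 6 of 32 at 0.156 kb (18.8%, 8.89 to 35.3%). It held 40.3% of all NKD2 peaks and 40.5% of the pairs at other spacings (37.9 to 43.2%), and both intervals lay below the latter. For 0.122 kb it held 10 of 37 (27.0%, 15.4 to 43.0%) and for 0.078 kb 12 of 33 (36.4%, 22.2 to 53.4%), whose intervals included 40.5%. In the central bin, from 40 to 50% of the length from the nearer end, there were 39 of 80 pairs at 0.152 kb (48.8%), against 20.4% of the pairs at other spacings. The 0.156 kb class had 0 pairs within 10% of an end.

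**Figure D5:**
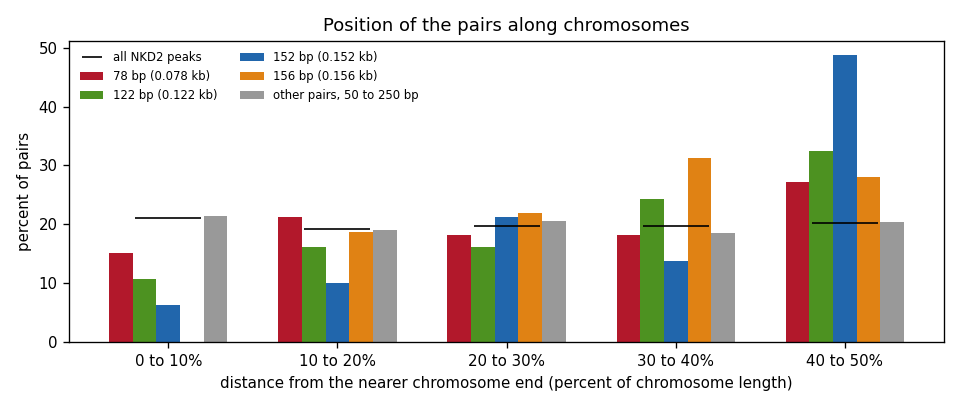
Bars give the percent of pairs of each class (y axis) by distance from the nearer chromosome end, in percent of chromosome length (x axis), grey bars the pairs at other spacings and black lines all NKD2 peaks. The 0.152 kb bar reaches 48.8% in the central bin, whereas the grey bars stay between 18.5 and 21.4%.

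Within 1 Mb of the previous pair of the same class lay 3 pairs at 0.078 kb, 2 at 0.122 kb, 6 at 0.152 kb and 1 at 0.156 kb. Pairs that share a peak are included, and no comparison with other pairs was made. The nearest couple at 0.152 kb was on chromosome 10, with lower summits at 68470110 and 68555355, 85.2 kb apart. The next was on chromosome 2, at 142868351 and 143032908, 165 kb apart. At 0.156 kb the nearest couples were 894 kb apart on chromosome 3, at 92595449 and 93489054, and 1004 kb apart on chromosome 1, at 213273854 and 214278074. Within 0.078 kb pairs, after the shared peaks on chromosomes 2 and 6, the nearest were 979 kb apart on chromosome 8.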

How the data were processed

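Per the methods, the authors used Trimmomatic for trimming and Bowtie2 for mapping (B73 build v4), kept reads above a mapping quality limit with SAMtools and called events with GEM, which uses both reads and short sequence words and shares reads between neighbouring events. Events of a HALO-GST control and listed problem regions were subtracted. The submitters' processing notes name B73 RefGen_v3, but the NKD lists are marked v4. Spacings are differences between deposited positions and do not use the name of the build. Whether they would differ with reads mapped to the other build was not tested.

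The deposited signal is GEM's event strength, not scaled between libraries. The deposited lists also give −log10 of the p-value and of the q-value, and a display score, which was not used. Depth is unknown. Each of the 4 lists comes from 1 library, so no test was run.

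Summits are printed counted from 1. Shares carry 95% Wilson intervals and medians 95% order-statistic intervals. Intervals over members treat the 2 members of a pair as independent and can be too narrow. Peaks of 1 library are not replicates. Chromosome length is the largest deposited end in the NKD lists. Named pairs are, per class, the 3 with the highest summed signal, those with NKD1 at both members, those sharing a peak, the nearest couples, and the extremes of balance; the pairs of 0.122 kb with NKD1, 3 of that class on chromosome 1, and 1 pair of 0.078 kb without NKD1 were named after their values were seen. Members and measures were chosen with earlier results of these data known. The code, in Python 3.11.15 with pandas 2.3.3 and scipy 1.17.1, was tested on simulated lists.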

Additional observations from a re-analysis of the deposited data

How the results depend on the processing

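Of 92 alternatives to 28 results, 75 stayed within counting error (or 1.5 times, for numbers of pairs) and 17 moved further. Limited to the strongest 50% of the list, 10 pairs remained at 0.122 kb and 4 at 0.152 kb. Limited to a q-value of 0.0001 or less, 8 and 3 remained. Allowing 1 bp more or less gave 52 pairs at 0.156 kb. Ranked by q-value, the median percentile of members was 62.8 at 0.122 kb and 43.6 at 0.152 kb. With the q-value in place of signal, the stronger peak was at the higher coordinate in 36.4% of pairs at 0.078 kb and 59.5% at 0.122 kb. At 0.152 and 0.156 kb the shares were 58.8% and 62.5%. These lay within the intervals of the shares by signal. With NKD1 peaks limited to a q-value of 0.0001 or less, the share of pairs with NKD1 was 42.4% at 0.078 kb, 12.5% at 0.156 kb, and 0% at 0.122 and 0.152 kb. Further NKD2 peaks within 5 kb were found at 42.4% of pairs at 0.078 kb, 27.0% at 0.122 kb, 38.8% at 0.152 kb and 40.6% at 0.156 kb, against 36.3% of the pairs at other spacings (33.7 to 39.0%). Without pairs that share a peak, chosen after seeing the data, the share with a further peak within 1 kb was 8% at 0.078 kb and 7.14% at 0.156 kb. In the outer 10% at each end the share of 0.156 kb pairs divided by the share of length was 0. The q-value and signal limits remove weak peaks by construction. Allowing 1 bp more or less and widening to 5 kb can only raise the counts. Leaving out pairs that share a peak removes only pairs with a further peak. For the other moves the cause was not tested. Motif shares were not run, because the sequence of build v4 was not used here. No paired analysis was possible because only 1 library was made per protein.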

Other observations

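Among the 15 NKD1 pairs up to 250 bp apart, 2 at 0.156 kb did not coincide with NKD2 pairs of that spacing. On chromosome 6, NKD1 summits at 166034199 and 166034355 had NKD1 signals of 27.0 and 23.0, and NKD2 had a summit 1 bp below the lower one and another 207 bp above it. On chromosome 4, those at 121807719 and 121807875, with 38.5 and 30.5, belonged to the locus where NKD2 left the third position of the 78 bp grid empty. These values were noticed after the data were seen.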
